A study of Mus musculus with 11 samples.

Results

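Krt6a, Krt6b, Krt16 and Krt17 encode the keratins that epidermis switches on when it is wounded or stressed, and their transcripts were followed here as the 4 rows of these names among the 49315 genes of a bulk RNA-seq count table of neonatal mouse skin. All 4 had enough counts to be tested. The 11 mice were Foxp3-DTR animals, in which the diphtheria toxin (DT) receptor is expressed from the Foxp3 locus, so that DT injection depletes regulatory T cells (Tregs) in the whole body and not in the skin alone. Control mice (label PBS, n = 2) were injected with PBS on postnatal days 6 to 12, ΔETreg mice (EarlyDT, n = 3) with DT on days 6 and 8 and sampled on day 9, ΔLTreg mice (LateDT, n = 3) with DT on days 10 and 12 and sampled on day 13, and ΔTreg mice (FullDT, n = 3) with DT on all 4 injection days from 6 to 12 and sampled on day 13. ΔETreg mice were younger than ΔLTreg and ΔTreg mice, so in those comparisons age and the time of depletion cannot be told apart. The study describes its comparisons with controls as age-matched, but the labels give no sampling day for the control mice and the same mice serve all comparisons, so any difference against control may also carry age. The control animals carry the same DTR allele but received no toxin.

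Keratins form intermediate filaments only as pairs of a type II and a type I chain. Krt6a and Krt6b are type II chains, and Krt16 and Krt17 are the type I chains they pair with. In unwounded skin Krt6a, Krt16 and Krt17 are made in the hair follicle, chiefly in its companion layer and outer root sheath, and in injured or inflamed epidermis the set appears in the keratinocytes between the follicles, where suprabasal cells otherwise make Krt1 and Krt10.

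The 4 genes lie in the 2 keratin clusters of the genome, all on the minus strand (GRCm38, GENCODE M21). Krt6a (chr15:101689910-101694307, 9 exons) and Krt6b (chr15:101676023-101680287, 9 exons) are neighbours 9623 bases apart, next to Krt5. Krt16 (chr11:100246091-100248902, 8 exons) and Krt17 (chr11:100256217-100261029, 8 exons) are 7315 bases apart, in the cluster that also holds Krt14. The coding sequences of Krt6a and Krt6b were 97.8% identical, with 37 mismatches over 1662 aligned bases, whereas those of Krt16 and Krt17 were 78.2% identical. Because a count of Krt6b is only as good as the bases that tell it from Krt6a, the 90 coding bases in which the pair differ most are shown, with the 12 mismatched bases in capitals (Krt6a chr15:101692484-101692573, Krt6b chr15:101678303-101678392).
Krt6a: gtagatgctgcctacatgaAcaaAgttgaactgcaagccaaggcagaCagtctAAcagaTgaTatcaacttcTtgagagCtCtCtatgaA
Krt6b: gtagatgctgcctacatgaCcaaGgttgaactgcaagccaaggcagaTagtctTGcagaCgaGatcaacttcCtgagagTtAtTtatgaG
Reads from such a stretch can be assigned to 1 gene. At the other extreme, a stretch near the start of the coding sequence (Krt6a chr15:101694126-101694215, Krt6b chr15:101680101-101680190) had 0 mismatches and cannot tell the genes apart.
Krt6a and Krt6b: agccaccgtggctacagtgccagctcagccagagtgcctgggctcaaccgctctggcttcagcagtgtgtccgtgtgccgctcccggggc
Of all stretches of 150 bases, the read length, 18.7% of the Krt6a transcript and 18.8% of the Krt6b transcript were shared with another gene. For Krt16 the share was 18.4%, all with the pseudogene Gm11597, which had 1 to 11 counts per library, and for Krt17 it was 0. Krt6a and Krt6b each overlap an annotated miRNA gene with 0 counts, and Krt6a also overlaps an antisense gene that was not analysed here.

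The libraries held from 23377571 to 34159435 counts, and the 4 keratins took 0.356% to 0.511% of them. Mitochondrial genes took 1.13% to 1.89%. Foxp3 itself had 0.35 to 0.70 CPM (counts scaled to library size) in every library, and its log2 fold changes against control were -0.49 (ΔETreg), -0.23 (ΔLTreg) and -0.30 (ΔTreg), none past the test. Whole skin at this depth therefore gives no check of the depletion. Keratinocyte markers were abundant in all 11 libraries, with a summed level of 9068 to 11686 CPM. In bulk tissue, more cells that make a transcript and more transcript per cell cannot be told apart.

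DT injection over the whole window was accompanied by higher levels of 3 of the 4 wound keratins. In ΔTreg skin Krt6b was 21.9-fold, Krt16 2.98-fold and Krt6a 2.30-fold the control level, whereas Krt17 was 1.19-fold and missed the threshold. After depletion on days 10 and 12 alone, only Krt6a of the 4 passed the test, at 1.64-fold. After depletion on days 6 and 8 none of the 4 passed. CPM values below are scaled by the TMM method, and the test is the quasi-likelihood test of edgeR with Benjamini-Hochberg adjustment over 18375 genes, called at an adjusted p under 0.05.

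**Figure D1:**
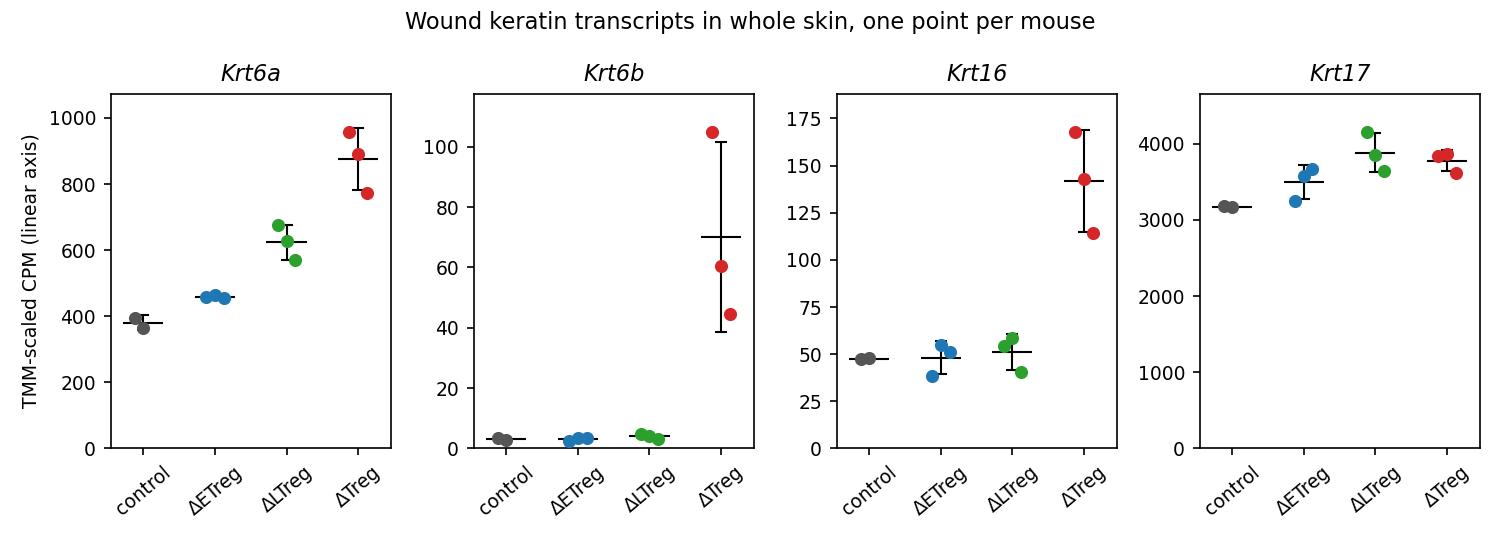
TMM-scaled CPM of Krt6a, Krt6b, Krt16 and Krt17 in whole skin, by group, on linear axes from 0, where each point is 1 mouse, the bar the mean and the error bar the SD. The 3 ΔTreg mice stand above the other 8 for Krt6a, Krt6b and Krt16, and for Krt17 they overlap the ΔLTreg and ΔETreg mice.

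Krt6a, the main type II wound keratin of mouse skin, was at 396 and 364 CPM in the control mice, at 460, 465 and 454 CPM in ΔETreg, at 675, 626 and 570 CPM in ΔLTreg and at 959, 891 and 774 CPM in ΔTreg mice. The 4 groups did not overlap with one another, and they ranked control, ΔETreg, ΔLTreg, ΔTreg. The group means were 379.8 ± 22.9 (SD, n = 2), 459.3 ± 5.43 (n = 3), 623.7 ± 53.0 (n = 3) and 874.6 ± 93.6 CPM (n = 3). The log2 fold change against control was 1.20 in ΔTreg (SE 0.101, adjusted p = 1.77e-05) and 0.72 in ΔLTreg skin (SE 0.0989, adjusted p = 0.00287). In ΔETreg skin the difference of 0.27 (95% interval of the fold 1.04 to 1.40) did not pass adjustment (adjusted p = 1.00). Krt6a was also higher in ΔTreg than in ΔLTreg skin, sampled on the same day, by 0.49 (adjusted p = 0.00281).

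Krt6b, its near-identical neighbour, was almost silent outside ΔTreg skin. It had 3.40 and 2.95 CPM in the control mice, 2.51, 3.32 and 3.51 CPM in ΔETreg and 4.65, 4.16 and 3.23 CPM in ΔLTreg mice, between 72 and 156 counts per library. In the ΔTreg mice it reached 105, 60.6 and 44.5 CPM, or 2450, 2041 and 1439 counts. The lowest ΔTreg mouse thus lay far above every other mouse, and the ΔTreg mean was 70.0 ± 31.4 CPM (SD, n = 3). The log2 fold change was 4.46 against control (SE 0.368, 95% interval of the fold 12.5 to 38.5, adjusted p = 1.58e-05) and 4.12 against ΔLTreg skin (adjusted p = 8.18e-06). Without the highest ΔTreg mouse, or any other single mouse, the difference from control stayed between 4.04 and 4.70. In ΔLTreg skin the fold against control was 1.26 with an interval of 0.710 to 2.24 (adjusted p = 0.684), and in ΔETreg skin 0.975 with an interval of 0.538 to 1.77 (adjusted p = 1.00).

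Krt16, the type I chain most closely tied to hyperproliferative epidermis, followed the pattern of Krt6b at a smaller size. It was at 47.4 and 47.7 CPM in the control mice, at 38.6, 55.0 and 51.0 CPM in ΔETreg, at 54.3, 58.8 and 40.6 CPM in ΔLTreg and at 168, 143 and 114 CPM in ΔTreg mice. The first 3 groups overlapped, and every ΔTreg mouse was above them. The log2 fold change in ΔTreg skin was 1.58 against control (SE 0.198, adjusted p = 0.000274) and 1.47 against ΔLTreg skin (adjusted p = 0.000180). In ΔLTreg skin the fold against control was 1.08 (95% interval 0.804 to 1.44, adjusted p = 0.814), and in ΔETreg skin it was 1.01 (0.756 to 1.36, adjusted p = 1.00).

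Krt17, which the developing hair follicle makes in quantity, was the most abundant of the set and in ΔTreg skin had the smallest fold against control of the 4. It was at 3178 and 3169 CPM in the control mice, at 3252, 3583 and 3670 CPM in ΔETreg, at 4160, 3853 and 3640 CPM in ΔLTreg and at 3841, 3866 and 3616 CPM in ΔTreg mice. All 9 DT-treated mice were above both controls, but the 3 DT-treated groups overlapped. The fold against control was 1.19 in ΔTreg skin (95% interval 1.04 to 1.37, adjusted p = 0.0739) and 1.22 in ΔLTreg skin (1.07 to 1.41, adjusted p = 0.0999), neither past the threshold. ΔTreg and ΔLTreg skin differed in Krt17 by a fold of 0.972 (0.859 to 1.10, adjusted p = 0.775). The Krt17 call turned on the setting. Of 19 alternatives 5 called ΔTreg skin against control, among them DESeq2 (adjusted p = 0.000678) and the fits without the first or the third ΔLTreg mouse (adjusted p = 0.0323 and 0.0486). DESeq2 also called Krt17 in ΔLTreg skin against control (adjusted p = 0.0267).

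**Figure D2:**
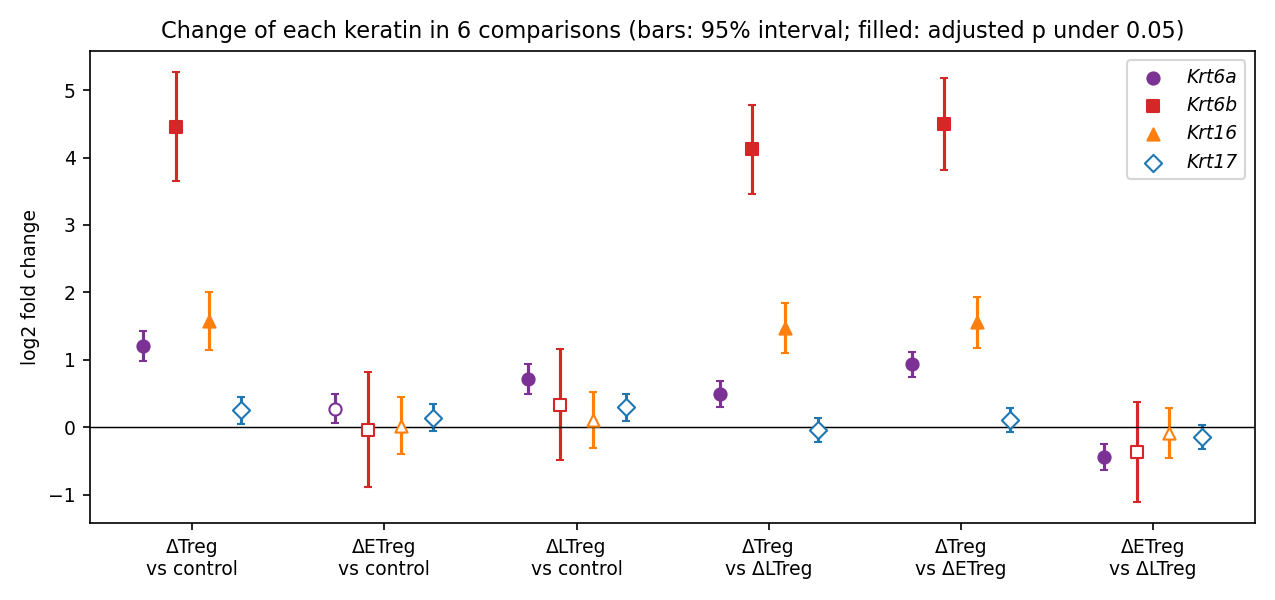
Log2 fold change of each keratin in the 6 pairs of groups, with the 95% interval of the edgeR fit as a bar and filled points for an adjusted p under 0.05. Krt6b, Krt16 and Krt6a are filled in the 3 comparisons of ΔTreg skin, Krt6a alone is filled in ΔLTreg against control and ΔETreg against ΔLTreg, and Krt17 is open throughout.

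Counted over the set, 3 of the 4 members were called higher in ΔTreg than in control skin, where 12.1% of all genes tested were called higher, with a median log2 fold change of 1.39 for the set beside -0.01 for all genes. In ΔLTreg against control 1 of 4 was called higher beside 1.86% of all genes, with medians of 0.31 and 0.00. In ΔETreg against control edgeR called 0 of 4, beside 0.00544% of all genes, while 1 of 4, Krt6a, had an unadjusted p under 0.05, and DESeq2 called that gene (adjusted p = 0.0365). These 3 comparisons share the same 2 control mice. The comparison of ΔTreg with ΔLTreg skin uses none of them, and there too 3 of 4 were called higher, beside 10.7% of all genes. Against ΔETreg skin the same 3 members, Krt6a, Krt6b and Krt16, were higher in ΔTreg skin, beside 13.2% of all genes, by log2 fold changes of 0.93, 4.49 and 1.56.

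Separation of the mice without any model was also counted. In all 4 members every ΔTreg mouse lay above both controls, as in 26.8% of all genes tested. The ΔLTreg mice lay above both controls in 2 of 4 members, Krt6a and Krt17, beside 15% of all genes, and so did the ΔETreg mice in the same 2 members, beside 9.35%. The ΔTreg mice lay above every ΔLTreg mouse and above every ΔETreg mouse in Krt6a, Krt6b and Krt16, 3 of 4, beside 19.2% and 23.4% of all genes. In Krt6a alone, 1 of 4, the ΔETreg mice lay below every ΔLTreg mouse, beside 13.7% of all genes.

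ΔETreg and ΔLTreg skin differed in 1 member. Krt6a was lower in ΔETreg skin by a log2 difference of -0.44 (adjusted p = 0.0156), 1 of 4 members beside 3.12% of all genes called lower. This call was lost when any 1 ΔETreg mouse was left out (adjusted p = 0.0509, 0.0648 and 0.0563), with the difference between -0.45 and -0.43.

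The ΔTreg change was tested against the sum of the changes measured in ΔETreg and ΔLTreg skin, in the same fit, on the log2 scale. The change in ΔTreg skin exceeded the sum of the changes in ΔETreg and ΔLTreg skin by 4.16 for Krt6b (SE 0.490, adjusted p = 0.00120) and by 1.45 for Krt16 (SE 0.254, adjusted p = 0.00764), 2 of 4 members beside 4.65% of all genes called higher. For Krt6a the excess was 0.21 (95% interval -0.07 to 0.50, adjusted p = 0.437), and for Krt17 the difference was -0.18 (-0.45 to 0.08, adjusted p = 0.478). Krt6b and Krt16 in ΔTreg skin thus exceeded the sum of the 2 measured changes, and for Krt6a no excess was shown. The ΔETreg term of this contrast comes from mice sampled at day 9. None of the 11 mice was depleted early alone and sampled at day 13. A later effect of the early doses and an effect beyond the sum therefore cannot be told apart.

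The levels of different genes were compared only per length, as FPKM (TMM-scaled CPM per kilobase of exon). In control skin mean FPKM was 2046 for Krt17, 157 for Krt6a, 30.4 for Krt16 and 1.42 for Krt6b. The order was the same in ΔTreg skin, at 2433, 362, 90.6 and 31.3, but Krt6b had come to the FPKM at which Krt16 stood in control skin. Per length, Krt6b made up 0.920% and 0.870% of the summed Krt6 transcripts in the control mice, 0.587% to 0.831% in ΔETreg, 0.609% to 0.739% in ΔLTreg and 10.6%, 6.85% and 5.86% in the ΔTreg mice. The type II members, Krt6a and Krt6b, were also higher in ΔTreg skin relative to their type I partners Krt16 and Krt17. Their summed FPKM was 7.95% and 7.31% of that of the partners in the control mice, 7.89% to 9.01% in ΔETreg, 9.99% to 10.4% in ΔLTreg and 17.2%, 15.3% and 14.1% in the ΔTreg mice. Within the type I pair, Krt16 was 1.46% and 1.47% of the sum in control mice and 4.16%, 3.54% and 3.03% in ΔTreg mice.

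Each member was also set against the basal keratinocyte keratins Krt5 and Krt14 of the same library, which needs no scaling between libraries. Krt6a had 6.28 and 5.32 counts per 100 counts of Krt5 and Krt14 in control mice against 11.5, 11.1 and 9.44 in ΔTreg mice. Krt6b had 0.0539 and 0.0432 in control mice against 1.26, 0.752 and 0.543 in ΔTreg mice. Krt16 had 0.752 and 0.699 in control mice against 2.02, 1.78 and 1.39 in ΔTreg mice. On this measure too the 3 ΔTreg mice lay above both controls for all 3 genes, by 1.84-fold, 16.6-fold and 2.36-fold. Each of these had p = 0.1 in a two-sided exact permutation test over mice, the smallest value that the group sizes allow, in a family of 30 such tests of which none could pass 0.05. Krt17, at 50.4 and 46.4 in control mice against 46.2, 48.0 and 44.1 in ΔTreg mice, overlapped (exact p = 0.4). The ratio of Krt6b to Krt6a counts was not the same across groups, at 0.858% and 0.811% in the control mice, 0.546% to 0.774% in ΔETreg, 0.566% to 0.688% in ΔLTreg and 10.96%, 6.80% and 5.75% in the ΔTreg mice (exact p = 0.1 against control).

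**Figure D3:**
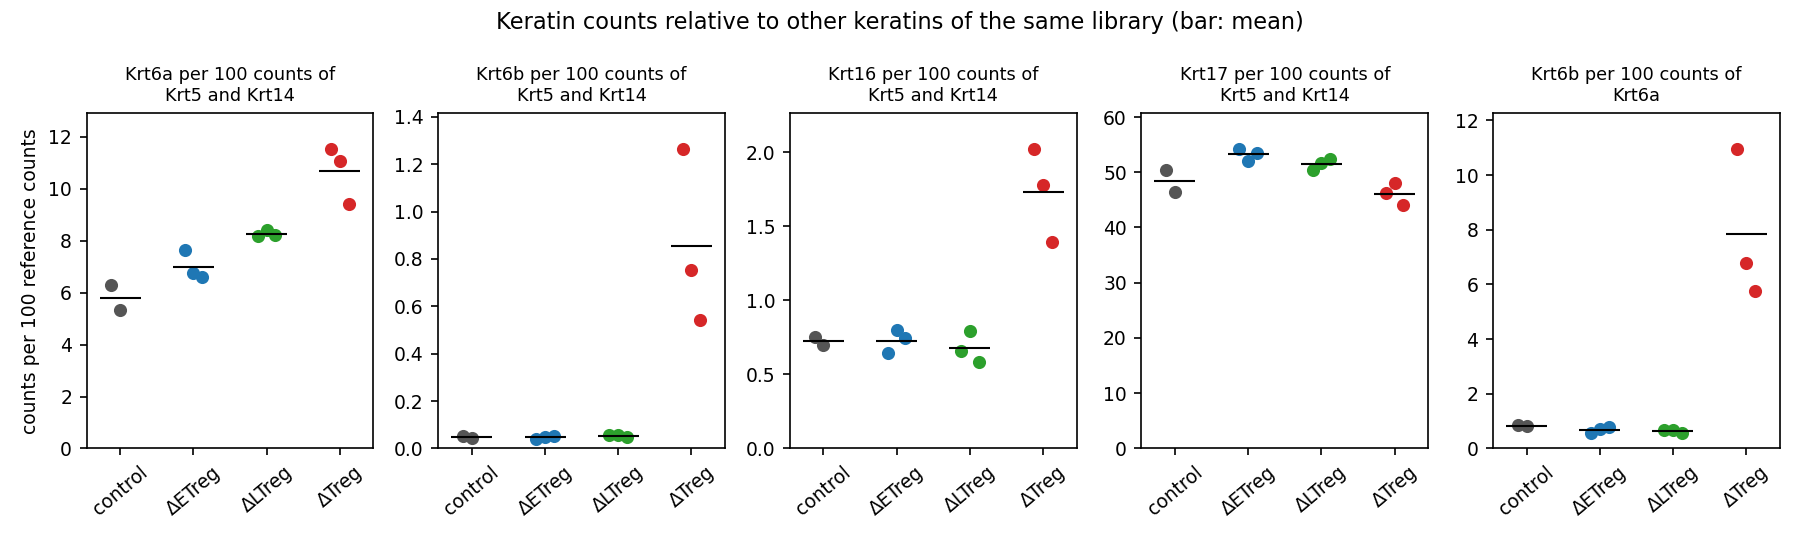
Counts of each keratin per 100 counts of Krt5 and Krt14 in the same library, and in the last panel counts of Krt6b per 100 counts of Krt6a, with 1 point per mouse and the mean as a bar. The 4 groups are apart for Krt6a, Krt6b and Krt16 stand high in the ΔTreg mice only, and Krt17 stays between 44.1 and 54.2 in all 11 mice.

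Among the other keratins there was no general rise. Tested were 33 keratins of the basal layer, suprabasal layers, inner root sheath, hair shaft and simple epithelia. In ΔTreg skin against control 4 of them rose and 3 fell, with a median log2 fold change of 0.03. These shares were near those of all 18375 genes tested, of which 2220 were called higher and 1726 lower. The greatest increase among the 33 keratins was 0.68 for Krt72 of the inner root sheath (adjusted p = 0.0327), below those of Krt6a, Krt6b and Krt16. Krt74, also of the inner root sheath, rose by 0.36 (adjusted p = 0.0223). Of the 3 basal keratins only Krt14 passed, with 0.40 (adjusted p = 0.0180), and Krt15 had -0.32 (adjusted p = 0.0745). None of 12 hair shaft keratins was called by edgeR or had an unadjusted p under 0.05, among them Krt35 (-0.30) and Krt84 (-0.44).

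Krt1 and Krt10, the main keratin pair of the differentiating layers, were lower in ΔTreg skin. Krt1, the type II keratin of the spinous layer, was at 992 and 629 CPM in the control mice, 421, 870 and 806 CPM in ΔETreg, 222, 326 and 313 CPM in ΔLTreg and 220, 209 and 208 CPM in ΔTreg mice. It fell in ΔTreg skin (log2 fold change -1.93, adjusted p = 0.000664) and in ΔLTreg skin (0.354-fold, adjusted p = 0.0141), and all 6 mice sampled at day 13 were below both controls, whose own age is not in the labels. Its partner Krt10 fell in ΔTreg skin by 0.66 on the log2 scale (adjusted p = 0.0357), and in ΔLTreg skin its difference was -0.24 (adjusted p = 0.560). Among 5 simple epithelial keratins Krt8 fell by 0.96 (adjusted p = 0.00541) and Krt20 had -1.08 (adjusted p = 0.0581) in ΔTreg skin. Of the 4 suprabasal keratins, 2 were lower in ΔTreg and 1 in ΔLTreg skin, beside 1726 and 495 of 18375 genes. None of the 4 was called higher. The 2 outside the naming rule, shown to complete the list, were Krt2 (-0.42, adjusted p = 0.411) and Krt77 (0.40, adjusted p = 0.134) in ΔTreg skin, and Krt77 had 0.41 (adjusted p = 0.212) in ΔLTreg skin.

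Other genes that stressed keratinocytes switch on were higher in ΔTreg skin. Of 9 small proline-rich and S100 genes, 8 were called higher than in control skin, beside 12.1% of all genes, and none lower. Their median log2 fold change was 1.00. Of the 9 genes, 1 had 0 counts in every ΔETreg and every ΔLTreg mouse. It was tested only because of its counts in ΔTreg and control mice, so a call of that gene tells little. Sprr2h, a precursor of the cornified envelope, was at 23.2 and 18.7 CPM in the control mice, 43.8, 43.0 and 43.5 CPM in ΔLTreg and 33.2, 42.8 and 49.9 CPM in ΔTreg mice. It rose in ΔLTreg (log2 fold change 1.05, adjusted p = 0.00886) and in ΔTreg skin (1.00, adjusted p = 0.00218), and the 2 groups differed by a log2 difference of -0.05 (adjusted p = 0.867). S100a9, a subunit of calprotectin, was at 2.03 and 1.79 CPM in the control mice, 3.49, 2.98 and 2.57 CPM in ΔLTreg and 10.8, 9.89 and 9.24 CPM in ΔTreg mice. Its log2 fold changes against control were 0.65 (adjusted p = 0.0468) and 2.38 (adjusted p = 4.69e-06). S100a9 is also made in quantity by neutrophils.

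Cytokine pathways known to induce wound keratins in keratinocytes were taken as lists. In ΔTreg against control, where 12.1% of all genes were called higher, 7 of 9 genes of the IL-1, TNF and STAT3 arm were higher. Among them were Stat3 at 1.71-fold (adjusted p = 4.63e-05) and the oncostatin M receptor Osmr at 2.28-fold (adjusted p = 0.000327). Of the IL-17 and IL-22 arm, 8 of 10 tested genes were higher, including the antimicrobial Lcn2 (8.85-fold, adjusted p = 0.000239). The neutrophil attractant Cxcl5 was another (4.42, 2.35 and 1.17 CPM in ΔTreg mice, at most 0.11 CPM in controls). Cxcl5 had at most 3 counts in any mouse outside ΔTreg, so it was tested only because of its ΔTreg counts. The cytokines that name that arm were not measurable at this depth, with 0 counts of Il17a, at most 3 of Il17f and at most 1 of Il22 in any library, and these 3 were singled out after their values were seen.

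In ΔLTreg against control, where 1.86% of all genes were called higher and 495 of 18375 lower, the same lists had few calls. The IL-1, TNF and STAT3 arm had 0 of 9, and 0 also at an unadjusted p under 0.05, with Stat3 at 1.06-fold and Osmr at 1.04-fold. The IL-17 and IL-22 arm had 0 higher and 1 of 10 lower, but 5 of 10 had an unadjusted p under 0.05. Krt6a and Krt1 were called in ΔLTreg skin where most genes of these lists were not. In ΔETreg against control edgeR and DESeq2 called none of the 106 tested genes of the keratin, stress and pathway lists, and 4 of them had an unadjusted p under 0.05 with edgeR.

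Growth factor, oxidative stress, hedgehog, proliferation and desmosome genes were also taken as lists. Over all genes tested, 12.1% were called higher in ΔTreg than in control skin, and 1726 of 18375 lower. Of 7 EGF receptor and ligand genes, the ligand Hbegf was higher in ΔTreg (1.74-fold, adjusted p = 0.000975) and in ΔLTreg skin (log2 fold change 0.59, adjusted p = 0.0236), and the ligand Btc was lower in ΔTreg skin (0.585-fold, adjusted p = 0.00204). Of 9 genes of the NRF2 pathway, which can induce Krt6a, Krt16 and Krt17, 1 was higher and 2 lower, the glutathione synthesis genes Gclc (-0.32, adjusted p = 0.0157) and Gclm (-0.22, adjusted p = 0.0353). Of 6 hedgehog genes 3 were lower in ΔTreg skin, among them the ligand Shh (0.639-fold, adjusted p = 0.00145) and the transcription factor Gli3 (0.742-fold, adjusted p = 0.000512), and none higher. Of 6 proliferation genes 5 were lower in ΔTreg skin, including Cdk1 (-0.29, adjusted p = 0.00990) and Ccnb1 (-0.32, adjusted p = 0.0125), and none higher. In ΔLTreg against control 2 of 6 hedgehog genes were called lower, beside 495 of 18375 genes. There 0 of 6 proliferation genes were called, but 4 had an unadjusted p under 0.05 and 0 had a positive change. Between ΔTreg and ΔLTreg skin 0 of 6 genes were called in either list. Of 8 desmosome and keratin-binding genes 1 passed, the desmosomal cadherin Dsg3 (1.25-fold, adjusted p = 0.00145), and Sfn, a Krt17-binding protein, was at 1.18-fold (adjusted p = 0.103).

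**Figure D4:**
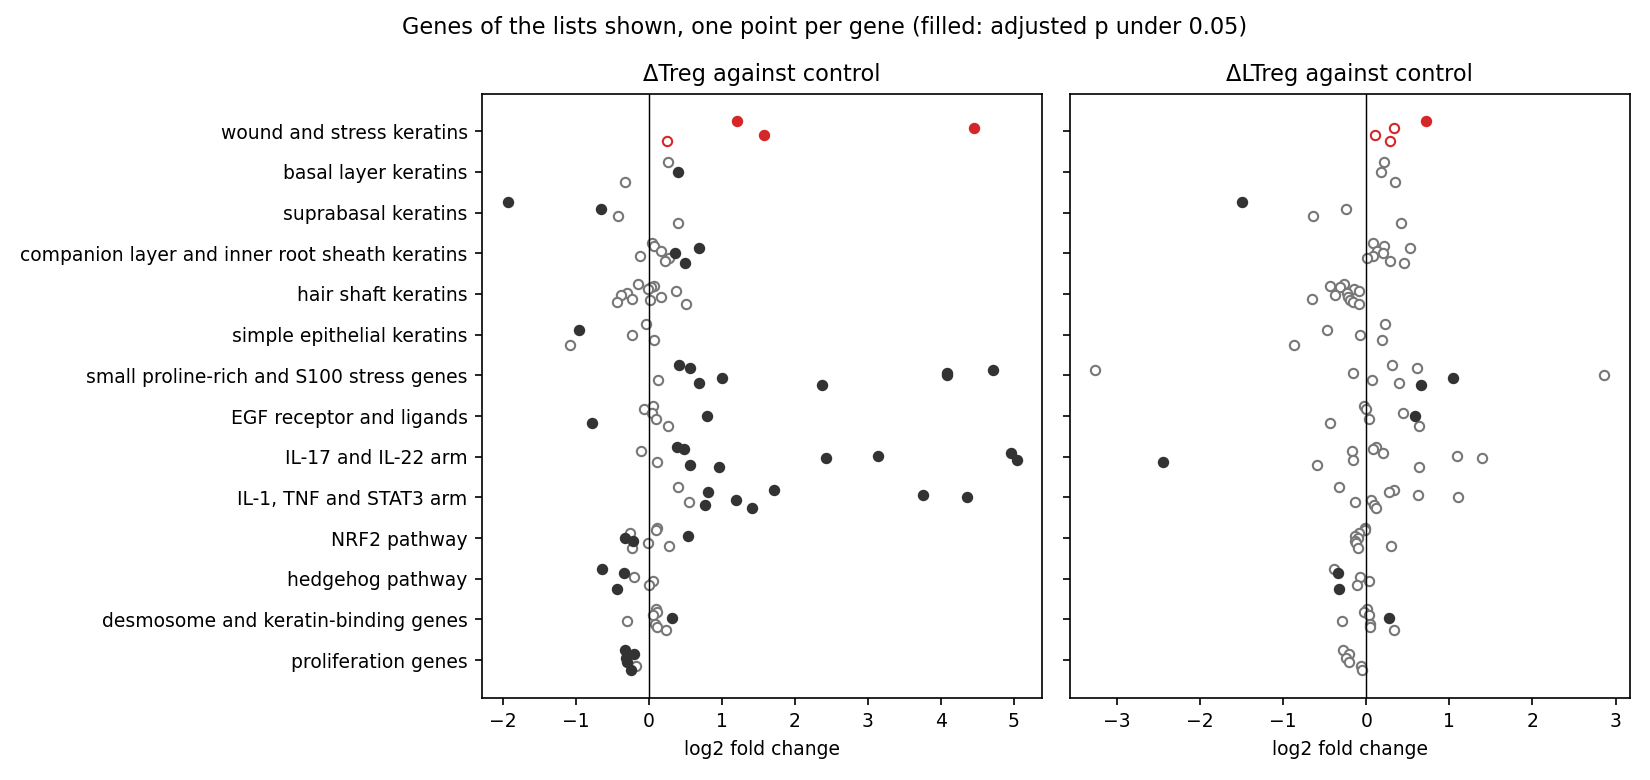
Log2 fold change of every tested gene of 14 lists in ΔTreg (left) and ΔLTreg (right) against control, 1 point per gene, filled for an adjusted p under 0.05 and red for the 4 wound keratins. The 2 panels have different horizontal scales and share the control mice. In ΔTreg skin filled points to the right of 0 gather in the stress and cytokine lists, and in ΔLTreg skin they are few.

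Markers of immune cells were higher in ΔTreg skin, as were Krt6a, Krt6b and Krt16, and of these keratins Krt6a was also called in ΔLTreg skin. In ΔTreg against control skin 7 of 7 T cell, 4 of 4 tested neutrophil and 3 of 5 macrophage markers were higher, beside 12.1% of all genes. In ΔLTreg against control none of these was called, with 1 marker of each list at an unadjusted p under 0.05. Log2 fold changes there were positive for 5 of 7 T cell, 1 of 4 neutrophil and 0 of 5 macrophage markers. The macrophage marker at an unadjusted p under 0.05 was thus lower. Cd8a, Cd8b1, Retnlg and Mmp8 had at most 5 counts in any mouse outside ΔTreg, so they were tested only because of their ΔTreg counts. That filter made a call in ΔTreg skin likely, and their lack of a call in ΔLTreg skin tells little. The summed T cell markers stood at 10.4 to 12.7 CPM in control, 10.2 to 12.9 in ΔETreg, 12.7 to 15.7 in ΔLTreg and 47.8 to 58.9 CPM in ΔTreg mice, and Cd8a was at 10.2, 7.01 and 9.15 CPM in ΔTreg mice against at most 0.10 CPM in any other mouse. The neutrophil sum was 1.51 to 3.33 CPM in control, 1.01 to 1.22 in ΔETreg, 1.00 to 3.49 in ΔLTreg and 8.40 to 16.4 CPM in ΔTreg mice, with the defining marker Ly6g at no more than 2 counts in any library. The macrophage sum was 148 to 196, 106 to 166, 83.3 to 189 and 334 to 459 CPM. Their part in the rise of Krt6a, Krt6b and Krt16 was not tested. Keratinocyte markers were higher by less, at 9482 to 10113 CPM in control, 10245 to 11569 in ΔLTreg and 11456 to 11686 CPM in ΔTreg mice. In ΔTreg against control 1 of 8 was called, 7 of 8 had an unadjusted p under 0.05 and 7 of 8 had a positive change.

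Other tissue in the biopsies varied as well. Of the 5 skeletal muscle markers Myh4 was higher in both groups sampled at day 13 (ΔTreg adjusted p = 0.00624, ΔLTreg adjusted p = 0.00278), and the muscle sum ranged from 902 to 1511 CPM over control and ΔETreg mice and from 1069 to 4166 CPM over the others. Of 5 melanocyte markers all 5 were lower in ΔTreg than in control skin, beside 1726 of 18375 genes. Tyr was at 0.522-fold (adjusted p = 0.000331) and Mlana at 0.499-fold (adjusted p = 0.000474). In ΔETreg skin none was called, but all 5 had an unadjusted p under 0.05, with log2 fold changes of -0.51 to -0.36. In ΔLTreg skin none was called, also not at an unadjusted p under 0.05. None of 5 adipocyte markers was called in ΔTreg skin, also not at an unadjusted p under 0.05. The hair shaft sum of 1 ΔLTreg mouse was 2859 CPM, while the other 10 mice had at least 7865 CPM. Without that mouse, the first of its group, Krt6a was still called in ΔLTreg against control (0.66, adjusted p = 0.00641).

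Over the 11 libraries Krt6b and Krt16 were the most alike of the members. Pearson's r of log2 CPM was 0.984 between Krt6b and Krt16, 0.867 between Krt6a and Krt6b and 0.848 between Krt6a and Krt16. For Krt17 it was 0.758 with Krt6a, 0.463 with Krt16 and 0.425 with Krt6b. These values describe 4 groups of 2 or 3 mice each, so differences between groups set most of their size. The closest match thus joined a type II chain and a type I chain from different chromosomes, and not the 2 neighbouring copies.

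Among all other genes with a mean of at least 1 CPM, the 5 most like Krt6a were Stap2 (r = 0.989), Icosl (0.986), Epcam (0.985), Gsdma3 (0.983) and Tnfsf10 (0.976). Gsdma3, an epidermal gasdermin, showed the Krt6a gradient at a larger size, with 4.03 and 2.91 CPM in the control mice, 4.67, 4.70 and 5.18 CPM in ΔETreg, 9.09, 8.04 and 8.52 CPM in ΔLTreg and 19.4 to 24.5 CPM in ΔTreg mice. The 5 most like Krt6b were Cish (r = 0.998), Daglb, Cxadr, Clic4 and Chil3. Chil3 had at most 1 count in any mouse outside ΔTreg and 111 to 207 in ΔTreg mice, so it entered this ranking only through ΔTreg. Cish, an inhibitor of cytokine signalling, was at 26.6 to 31.1 CPM in the 8 other mice and at 71.1, 60.0 and 55.4 CPM in the ΔTreg mice. The 5 most like Krt16 were Dram1 (r = 0.990), Il13ra1, Cdk6, Adora2b and Birc3, and the 5 most like Krt17 were Plet1 (r = 0.964), Foxp4, Zbtb7c, Rnf8 and Gm20683. Plet1, a surface protein of follicle epithelium, was at 105 and 103 CPM in control mice against 116 to 154 CPM in the 9 DT-treated mice. The genes were picked out of the whole table for this likeness, which is a description and carries no test.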

How the data were processed

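Whole skin of 11 mice, 1 library per mouse, was measured by bulk RNA-seq. According to the methods and the submitters' processing notes, Trimmomatic 0.36 was used for trimming, STAR 2.5.2b for alignment to GRCm38 and featureCounts of Subread 1.5.2 for exonic counts per gene. The authors deposited raw counts, without normalization, as 1 table of 49315 genes. The annotation release and strand setting are not given in the sources used here. Positions come from GENCODE M21, in which 49056 of the identifiers were found, and 174 genes had no name.

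Genes passing filterByExpr (18375) were fitted in R 4.3.3 with edgeR 4.0.16 (TMM scaling, a mean per group, all 11 libraries in 1 quasi-likelihood fit, Benjamini-Hochberg adjustment). Ratios of counts were compared by two-sided exact permutation over mice. DESeq2 1.42.0, sva 3.50.0, other scalings and filters, a term for sex and the removal of single mice served as alternatives. Scripts were tested on simulated data. P-values measure the spread between single mice of each group. Reads carried no molecular identifiers.

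Named genes are the 4 members, in each list the 2 with the lowest p in ΔTreg against control, the 5 genes most correlated with each member, and Foxp3. Members and lists were chosen with earlier results of these data known. Krt85 and Areg of the lists were not analysed here, and 10 listed genes were too low to test. Single mice are named in the order of the sample records. The result of 1 further list is not reported here.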

Additional observations from a re-analysis of the deposited data

Results flagged for a closer look

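Krt6a differed between the early and the late depletion, with a log2 difference of -0.44 between ΔETreg and ΔLTreg skin (edgeR adjusted p = 0.0156). It was lower in all 3 ΔETreg mice than in any of the 3 ΔLTreg mice. The groups also differ in age at sampling.

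For Krt6b and Krt16 the change after 4 injections differed from the sum of the changes after each pair of injections. The excess on the log2 scale was 4.16 for Krt6b (edgeR adjusted p = 0.00120) and 1.45 for Krt16 (adjusted p = 0.00764). The early change was measured at day 9, so a later effect of the early doses and an effect beyond the sum cannot be told apart.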

How the results depend on the processing

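No paired analysis was possible because the labels used here link no mouse to a mouse of another group. Krt6a, Krt6b and Krt16 were called higher in ΔTreg skin against control, ΔLTreg and ΔETreg skin in all 19 alternatives run on the separate genes, as was Krt6a in ΔLTreg against control (adjusted p up to 0.0476). The excess over the summed early and late changes stayed called for Krt6b and Krt16, with adjusted p up to 0.0181 and 0.0439. With Krt6a and Krt6b counts summed, the pair differed from control by 0.27 in ΔETreg and 0.71 in ΔLTreg skin, and the excess was 0.32 (adjusted p = 0.263).

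The number of wound keratins called went from 0 to 1 in ΔETreg against control with DESeq2, from 1 to 2 in ΔLTreg against control with DESeq2 or with no filter beyond 1 count, and ranged from 0 to 1 in ΔETreg against ΔLTreg with a mouse left out. Of the 106 genes of the related lists, those called in ΔLTreg against control went from 10 to 1 with the 2 groups fitted alone and 28 without the filter, and ranged from 1 to 14 with a mouse left out. In ΔETreg against ΔLTreg they went from 13 to 3 (2 groups alone), 33 (no filter) and 8 (1 surrogate variable), and ranged from 4 to 15. In ΔTreg against ΔLTreg they went from 29 to 44 without the filter. For the excess they went from 15 to 26 without the filter and ranged from 9 to 17 with a mouse left out, and in ΔTreg against control, where 53 were called, they ranged from 29 to 59, the lowest without the second control mouse. Over all genes, ΔLTreg against control had 836 calls, 154 with the 2 groups alone, 509 with 1 surrogate variable and 1790 without the filter, and ΔETreg against control had 1, or 19 with DESeq2 and 54 without the filter. With the 2 groups alone ΔETreg against ΔLTreg had 540 calls in place of 1173. These counts, and the background shares that rest on them, also moved with single mice. ΔLTreg against control had 292 calls without the first control mouse and 377 without the second, ΔTreg against control 2026 in place of 3946 without the second control mouse, and ΔTreg against ΔLTreg 1987 in place of 3096 without the first ΔTreg mouse. ΔETreg against control ranged from 0 to 7 calls with a mouse left out, and ΔETreg against ΔLTreg had 353 to 619 without any 1 ΔETreg mouse. The excess had 369 in place of 1004 without the first control mouse, 604 without the first ΔTreg mouse and 630 without the third ΔETreg mouse.

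Differences near 0 changed sign. With a mouse left out, ΔETreg against control ranged from -0.13 to 0.10 for Krt6b (0.058 with sex as a covariate) and from -0.089 to 0.16 for Krt16, Krt16 in ΔETreg against ΔLTreg from -0.22 to 0.056, and Krt17 in ΔTreg against ΔLTreg from -0.084 to 0.0059. The ratio to Krt5 and Krt14 ranged from -0.20 to 0.12 (Krt6b) and from -0.069 to 0.088 (Krt16) in ΔETreg, and from -0.033 to 0.29 (Krt6b) in ΔLTreg against control. Set against 8 keratinocyte markers, the ratio was 0.017 for Krt16 in ΔLTreg and 0.054 for Krt17 in ΔTreg against control, and -0.057 for Krt17 in ΔETreg against ΔLTreg. The cause of these changes was not tested. With 2 control mice, small differences such as that of Krt17 are not settled at this size.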
